A study of Mus musculus with 6 samples.

Results

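The 38 genes described here carry out mitosis and the passage from G2 into it. They are the cyclins and kinases that start mitosis, the kinetochore and checkpoint proteins that hold chromosomes on the spindle, the spindle motors, and the proteins of cytokinesis. The genes were taken by symbol, not by any measured value, from a table of 54532 gene rows, and each of the 38 symbols matched 1 row. All 38 averaged 1 or more across the 6 libraries and so passed the filter on low values, as 14944 genes did.

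Mitotic genes are transcribed late in the cell cycle and are shut off in resting cells. In quiescent cells the DREAM complex holds their promoters silent, and in G2 the MuvB core of that complex joins B-MYB and FOXM1 to activate them. Naive T cells rest outside the cycle for long periods and divide fast after antigen contact, so that the RNA of these genes in a T cell sample largely follows how many of its cells are cycling. In bulk samples such as these, fewer cycling cells and less RNA per cycling cell cannot be told apart.

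RNA was measured in 6 libraries of CD4 T cells from C57BL/6 mice, taken from the spleen together with lymph nodes. The 3 WT libraries (WT 1, WT 2 and WT 4) carry the genotype label iCD4-PRMT5fl/fl, that is, floxed alleles of Prmt5, and the 3 KO libraries (KO 1, KO 4 and KO 5) carry iCD4-PRMT5 delta/delta. PRMT5 is an enzyme that places symmetric dimethyl marks on protein arginines. The labels give neither the age nor the number of animals per sample, and do not say what drives the recombinase. The sample titles hold the word rest, whereas the treatment label states CD3 and CD28 stimulation for 48 h for all 6, and the deposited table holds 6 more columns, not used here, whose headers read act where those used read rest. The labels thus do not settle the activation state, which does not separate KO from WT. A library code places WT 1, WT 2 and KO 1 in series 22 and WT 4, KO 4 and KO 5 in series 24.

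Values are the deposited robust FPM, a name that DESeq2 uses for fragments per gene scaled by size factors, and the read depth behind them is unknown. The T cell genes Cd3e (112.8 to 140.8) and Cd4 (388.8 to 465.0) were high in all 6 libraries, and Il2 measured 0.7 to 1.1. Prmt5 measured 34.9, 41.0 and 43.9 in WT and 24.4, 23.8 and 21.5 in KO, with every KO library below every WT library. WT 1 stood apart. Olfactory and vomeronasal receptor genes, which T cells do not use, measured 0.301 FPM per kb of exon in it and 0.0143 to 0.0851 in the others, and it held the lowest value for 44.3% of all genes tested.

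The promoters of the mitosis genes share short sequences, and 8 are printed to show what the genes have in common before their values are compared. RefSeq promoters on GRCm38.p6, from 250 bases before to 50 bases after the transcript start, matched 32 of the 38 symbols, and the first listed promoter of each was searched. TTTGAA is the core of the CHR, the element that the MuvB core binds, and CCAAT is the box that NF-Y binds. Both were searched on both strands (TTCAAA and ATTGG on the other strand), and matches that overlapped were each counted. The windows below hold the 200 bases before the transcript start, written 5′ to 3′ along the gene, with each TTTGAA and CCAAT match in capitals.
Mki67 (chr7:135716380-135716579, minus strand): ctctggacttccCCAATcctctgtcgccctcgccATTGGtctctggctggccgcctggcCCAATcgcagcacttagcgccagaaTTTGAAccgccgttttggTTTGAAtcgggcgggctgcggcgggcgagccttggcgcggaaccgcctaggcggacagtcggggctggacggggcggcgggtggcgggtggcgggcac
Top2a (chr11:99024190-99024389, minus strand): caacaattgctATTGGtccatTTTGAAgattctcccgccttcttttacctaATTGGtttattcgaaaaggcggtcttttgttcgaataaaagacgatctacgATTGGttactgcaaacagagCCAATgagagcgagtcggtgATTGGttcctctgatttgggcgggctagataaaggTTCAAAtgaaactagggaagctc
Cdk1 (chr10:69352913-69353112, minus strand): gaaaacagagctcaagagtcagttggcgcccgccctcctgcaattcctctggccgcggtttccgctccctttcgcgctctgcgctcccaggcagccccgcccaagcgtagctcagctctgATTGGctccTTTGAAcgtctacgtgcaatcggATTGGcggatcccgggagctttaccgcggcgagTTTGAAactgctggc
Ccnb1 (chr13:100786487-100786686, minus strand): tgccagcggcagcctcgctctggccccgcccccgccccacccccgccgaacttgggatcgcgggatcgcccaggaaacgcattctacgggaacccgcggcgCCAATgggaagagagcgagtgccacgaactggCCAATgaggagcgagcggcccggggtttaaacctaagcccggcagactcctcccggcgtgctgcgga
Ccnb2 (chr9:70421555-70421754, minus strand): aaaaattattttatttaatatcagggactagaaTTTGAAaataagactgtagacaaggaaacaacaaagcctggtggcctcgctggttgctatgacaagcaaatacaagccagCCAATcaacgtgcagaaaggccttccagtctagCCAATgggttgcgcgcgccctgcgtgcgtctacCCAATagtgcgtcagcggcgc
Cdc20 (chr4:118437344-118437543, minus strand): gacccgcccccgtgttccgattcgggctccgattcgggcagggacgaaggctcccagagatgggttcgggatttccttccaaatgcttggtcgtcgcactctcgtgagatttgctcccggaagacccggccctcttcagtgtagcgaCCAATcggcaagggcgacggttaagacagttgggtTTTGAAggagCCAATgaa
Ube2c (chr2:164769729-164769928, plus strand): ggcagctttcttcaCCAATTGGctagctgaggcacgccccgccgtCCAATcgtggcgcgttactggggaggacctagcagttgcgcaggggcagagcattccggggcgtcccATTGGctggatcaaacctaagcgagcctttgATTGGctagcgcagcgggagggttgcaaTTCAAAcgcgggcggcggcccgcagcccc
Mad2l1 (chr6:66535021-66535220, plus strand): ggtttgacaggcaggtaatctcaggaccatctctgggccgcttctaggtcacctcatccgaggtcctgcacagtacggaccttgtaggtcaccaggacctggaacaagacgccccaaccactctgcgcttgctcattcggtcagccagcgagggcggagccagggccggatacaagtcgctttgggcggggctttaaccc

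The promoter of Mki67 held TTTGAA with first bases at -116 and -98 from the transcript start, and 3 CCAAT matches at -188, -166 and -141. Top2a held 5 CCAAT matches within the printed bases, and TTTGAA at -179 and, on the other strand, at -23. In Cdk1 a CCAAT match at -80 and another at -48 stood on the same strand, with TTTGAA at -71 and -15. Ccnb1 had its CCAAT matches at -99 and -67 and no TTTGAA, and carried the related TTTAAA at -42. Ccnb2 showed CCAAT at -87, -54 and -21, spaced by 33 bases, and a TTTGAA just past the start at 4. Cdc20 had CCAAT at -53 and -8 around a TTTGAA at -18. In Ube2c the CCAAT matches at -186 and -183 overlapped, on opposite strands. Mad2l1 held neither sequence in its window.

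Over the 32 promoters, TTTGAA was present in 25, or 78.1%, against 17.9% of all 32851 promoters of the same length and 12.8% of those of tested genes. In 23 of the 32 the first base of a match lay within 50 bases of the start, against 4.94% of all promoters. CCAAT was present in 24, or 75.0%, against 37.4% of all promoters, and 16 had at least 2 matches. A pair of CCAAT matches on the same strand 31 to 33 bases apart was found in 6 of the 32, or 18.8%. It was found in 0.794% of all promoters and 1.63% of those of tested genes, and the spacing was chosen after these matches had been seen. Both sequences were present in 21 members and neither in 4. Related lists also held them often. TTTGAA was present in 58.6% of 29 promoters of other spindle and cytokinesis genes, 35.5% of 31 of other kinetochore genes and 12.1% of 33 of DNA replication genes. CCAAT was present in 69.0%, 64.5% and 60.6% of these, and the CCAAT pair in 6.9%, 6.45% and 0.0%. The pair was also present in 8.33% of 24 promoters of other mitotic kinases with the E2F and FOXM1 axis. TTTAAA was present in 9, or 28.1%, against 13.2% of all promoters. These matches describe the letters of the windows and do not show binding.

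Levels can be compared between genes only per length, here as FPM per kb of exon. Mki67, which encodes the Ki-67 protein that coats mitotic chromosomes and marks cycling cells, had the highest level, with a median of 11.2 and a range of 5.61 to 11.9 over the 6 libraries. Top2a, the topoisomerase that untangles sister chromatids, came next at 7.95 (4.48 to 8.39). These held the first and second place in each of the 6 libraries. Ccnb2 (cyclin B2, median 4.44), Cdc20 (4.39) and Cenpa (4.23) followed. Regulators of mitotic entry were spread over the order, with Ccna2 at 3.56, Ccnb1 at 2.10, Cdk1 at 1.42, Plk1 at 0.932 and Foxm1 at 0.478. Espl1, the gene of separase, was lowest at 0.314. Over the libraries the ranges of all 37 pairs of neighbours in this order overlapped. The medians of Foxm1, Ttk (0.478) and Espl1 are close to the 0.301 FPM per kb that WT 1 showed at receptor genes.

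**Figure D1:**
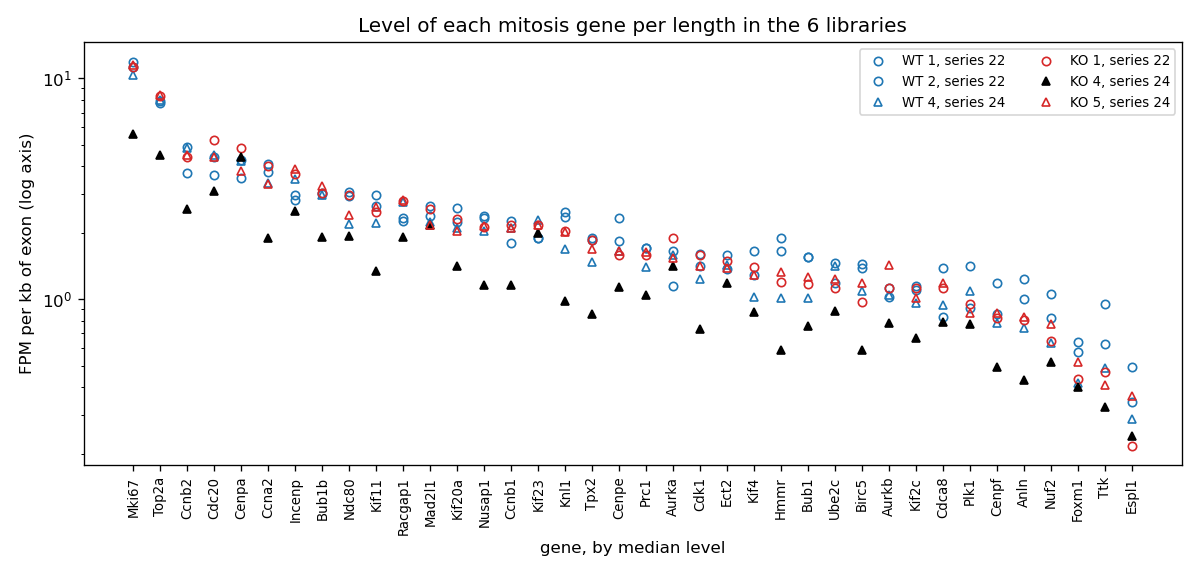
Level of the 38 mitosis genes in FPM per kb of exon (log axis), ordered by median, with 1 symbol per library (blue WT, red KO, circles series 22, triangles series 24, filled black triangle KO 4). Within each library Mki67 and Top2a lie above the other genes, and the black triangle of KO 4 is the lowest point for 33 of the 38 genes.

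The comparison of KO with WT asks whether loss of Prmt5 alleles is accompanied by another level of mitotic transcripts. No mitosis gene passed the test: limma called 0 of 38 members, as it called 0 of all 14944 genes (0.0%), and the adjusted p of each member was 1. The lowest limma adjusted p of any gene was 0.249. Prmt5 itself, though lower in every KO library than in every WT library, was thus not called either. The lack of calls therefore does not show that the mitosis genes were unchanged. At an unadjusted p under 0.05 there were 0 members and 37 genes overall (0.248%). The log2 change (KO minus WT, from a fit that also holds the library series) was below 0 for 30 of 38 members, against 45.6% of all genes. The median change was -0.15 for the members and 0.01 for all genes. The KO libraries lay wholly below the WT libraries for 2 members, Ttk and Cenpe, against 1.79% of all genes, and wholly above them for 0, against 1.09%. The 95% interval excluded a 2-fold change in either direction for 34 members and a 1.5-fold change for 11, against 85.1% and 60.1% of all genes.

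Only without KO 4 did the median change of the members come close to that of all genes. The member median was -0.16 without WT 1 and -0.15 without WT 2, where all genes had -0.01 and 0.02. KO 4 held the lowest value of the 6 libraries for 33 of 38 members (86.8%), against 2727 of all 14944 genes. Without KO 4 the median change of the members was 0.01 and 18 of 38 were below 0, beside a median of 0.04 for all genes. It was -0.29 without KO 5, with 34 of 38 below 0, where all genes had 0.01. Without WT 4 no WT library of series 24 remains, so that KO 1 alone is compared with WT 1 and WT 2, and the median was -0.03 with 21 below 0, beside 0.11 for all genes. Without KO 1 the comparison is that of KO 4 and KO 5 with WT 4 alone, and the median was -0.24, beside -0.07 for all genes. In both cases the spread of the lone library is assumed to be that of the others.

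**Figure D2:**
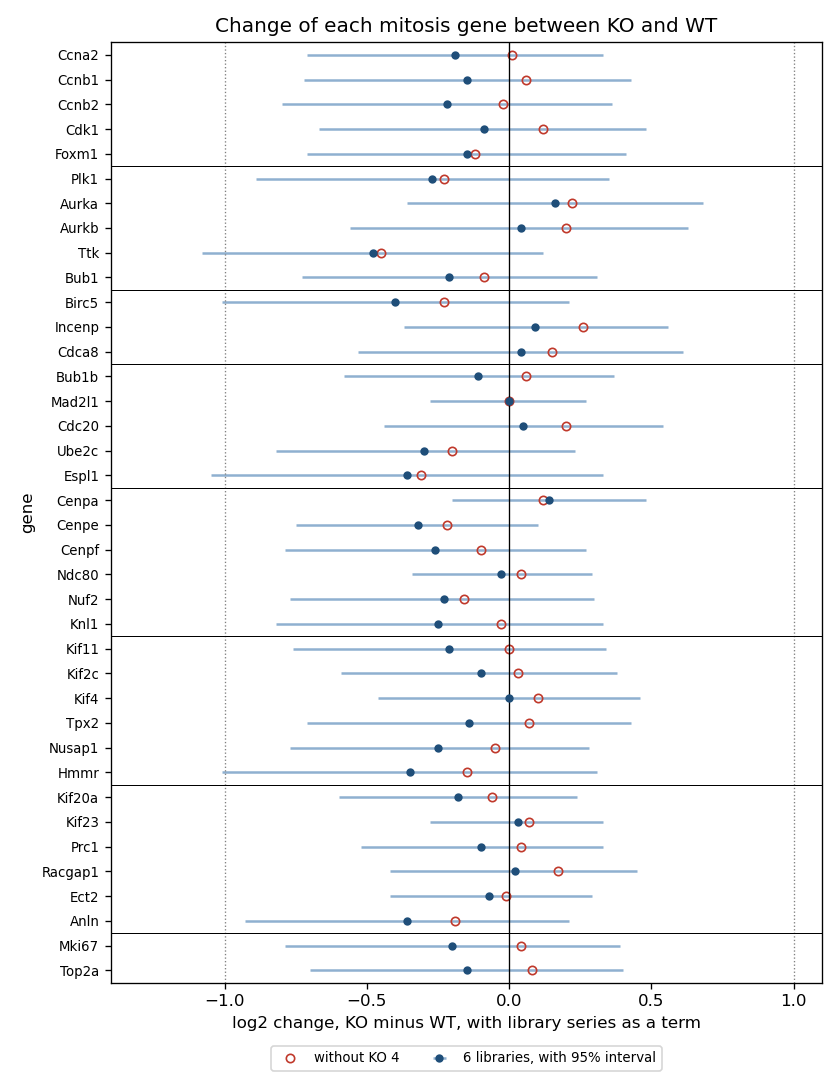
log2 change of each mitosis gene between KO and WT (filled points, with the 95% interval of the limma fit to 6 libraries) and the change without KO 4 (open red circles), with horizontal lines between the roles. Each interval spans 0, and without KO 4 the points move toward 0 or above it for most genes.

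For the cyclins and their kinase, KO 4 was the lowest library. Ccna2, cyclin A2, which drives late S phase and mitotic entry, measured 15.4 in WT 1, 16.8 in WT 2, 13.7 in WT 4, 16.4 in KO 1, 7.7 in KO 4 and 13.6 in KO 5, and the other genes are given below in this order. The value in KO 4 was 0.50 times the median of the other 5, and the groups overlapped. The log2 change was -0.19 (SE 0.225), and 0.01 without KO 4. Ccnb1, cyclin B1, the partner of CDK1 at mitotic entry, measured 7.6, 9.5 and 8.8 in WT and 9.1, 4.9 and 8.9 in KO, a log2 change of -0.15 (SE 0.247). Cdk1 itself measured 7.9, 7.0 and 6.1 in WT and 7.8, 3.6 and 7.0 in KO, a log2 change of -0.09 (SE 0.249) that was 0.12 without KO 4. For both genes KO 1 and KO 5 lay inside the WT range and KO 4 below it. Ccnb2 behaved likewise, at 3.9 in KO 4 and 5.7 to 7.5 elsewhere.

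Foxm1, the forkhead factor that activates G2 and M genes, was low and differed less. It measured 3.3, 3.7 and 2.4 in WT and 2.5, 2.3 and 3.0 in KO, so that KO 4 and WT 4 were close. Its log2 change was -0.15 (SE 0.241), with -0.41 within series 22 and 0.11 within series 24.

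The mitotic kinases did not follow 1 pattern. Ttk, the MPS1 kinase that starts the spindle checkpoint, measured 4.7, 3.1 and 2.4 in WT and 2.3, 1.6 and 2.0 in KO. All 3 KO values lay below the WT values, by 0.1 at the closest, and WT 1 was the highest library. The log2 change was -0.48 (SE 0.260, 95% interval -1.08 to 0.12), the most negative of the members, at -0.63 within series 22 and -0.34 within series 24. It was -0.45 without KO 4, -0.35 without WT 1 and -0.44 with the receptor gene background subtracted per kb. Plk1, polo-like kinase 1, which drives centrosome maturation and mitotic entry, measured 3.1, 2.0 and 2.4 in WT and 2.1, 1.7 and 1.9 in KO (log2 change -0.27, SE 0.267). Its groups overlapped, with KO 1 above WT 2.

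The Aurora kinases had overlapping groups. Aurka, which acts at centrosomes and spindle poles, measured 2.9, 4.2 and 4.0 in WT and 4.8, 3.6 and 3.9 in KO, a log2 change of 0.16 (SE 0.225) that was -0.08 without KO 1. Its lowest library was WT 1, not KO 4. Aurkb, the kinase of the chromosomal passenger complex that corrects faulty attachments, measured 3.3, 3.0 and 3.1 in WT and 3.3, 2.3 and 4.2 in KO, a log2 change of 0.04 (SE 0.258). KO 4 and KO 5 were its lowest and highest library. Bub1, a checkpoint kinase at kinetochores, ranged from 3.3 in KO 4 to 6.8 in WT 1 and WT 2.

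The partners of Aurora B differed from each other. Birc5, the gene of survivin, measured 4.7, 4.9 and 3.7 in WT and 3.3, 2.0 and 4.0 in KO. KO 4 was lowest, and KO 5 lay above WT 4. Its log2 change of -0.40 (SE 0.263, 95% interval -1.01 to 0.21) was -0.23 without KO 4. Incenp, the scaffold of the complex, measured 12.8, 12.2 and 15.2 in WT and 16.0, 10.9 and 16.8 in KO, with KO 1 and KO 5 above all WT libraries and KO 4 below them (log2 change 0.09, SE 0.20). Cdca8, which encodes borealin, ranged from 4.1 in KO 4 to 7.2 in WT 1.

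Of the 5 genes of the spindle checkpoint and anaphase onset, KO 4 was the lowest library for 3. Cdc20, the activator of the anaphase-promoting complex, measured 6.8, 8.2 and 8.4 in WT and 9.8, 5.8 and 8.2 in KO. KO 1 was its highest and KO 4 its lowest library, and the log2 change of 0.05 (SE 0.213) was 0.37 within series 22 and -0.27 within series 24. Ube2c, the ubiquitin-conjugating enzyme of that complex, measured 3.8, 3.1 and 3.7 in WT and 2.9, 2.3 and 3.2 in KO, a log2 change of -0.30 (SE 0.226) that was -0.20 without KO 4. Of its 2600 exon bases, 592 are shared with Tnnc2 on the opposite strand. Bub1b, the gene of the checkpoint protein BUBR1, was nearly constant outside KO 4, at 12.6 to 13.9 against 8.2. Mad2l1, the checkpoint protein MAD2, ranged only from 18.1 to 22.1, with KO 5 lowest. Espl1, separase, ranged from 1.9 in KO 1 to 4.3 in WT 1.

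At the centromere, Cenpe and Cenpa stood at opposite ends. Cenpe, the kinesin that carries chromosomes to the spindle equator, measured 20.2, 15.9 and 14.3 in WT and 13.7, 9.7 and 14.2 in KO. The KO values all lay below the WT values, with WT 4 and KO 5 only 0.1 apart. Its log2 change was -0.32 (SE 0.183, 95% interval -0.75 to 0.10), at -0.38 within series 22 and -0.27 within series 24, and -0.22 without KO 4. Cenpa, the histone H3 variant that marks centromeres, measured 20.6, 24.9 and 24.7 in WT and 28.4, 25.7 and 22.4 in KO. It was the 1 member whose value in KO 4 lay above the median of the other 5 libraries, and its log2 change was 0.14 (SE 0.148).

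The other kinetochore genes had their lowest value in KO 4. Cenpf, a large protein of the outer kinetochore that accumulates in G2, measured about 18, 13.2 and 12 in WT and 12.7, 7.6 and 13.3 in KO (log2 change -0.26, SE 0.230, and -0.10 without KO 4). Knl1, the scaffold that recruits BUB proteins, measured 8.4 in KO 4 and 14.4 to 21.3 elsewhere. Ndc80, the microtubule-binding subunit, measured 12.5 in KO 4 and 14.3 to 19.8 elsewhere, and its partner Nuf2 3.3 in KO 4 and 4.0 to 6.7 elsewhere.

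The log2 changes of the 6 spindle genes ran from -0.35 for Hmmr to 0.00 for Kif4, and each had its lowest value in KO 4. Kif11, the motor that pushes spindle poles apart, measured 22.1, 19.6 and 16.6 in WT and 18.4, 10 and 19.5 in KO, a log2 change of -0.21 (SE 0.238) that was 0.00 without KO 4. Hmmr, a spindle protein that works with TPX2, had the largest relative difference of KO 4 among the 38 genes, at 3.2 against 5.5 to 10.3, or 0.444 times the median of the other 5. Tpx2, which activates Aurora A, stood at 0.460 times that median, and Nusap1, which bundles spindle microtubules, at 0.540 times. For the kinesins Kif2c and Kif4 these ratios were 0.604 and 0.676. Of the 5514 exon bases of Kif4, 832 are shared with Pdzd11 on the opposite strand.

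Cytokinesis genes were divided. Anln, anillin, which organises the contractile ring, measured 11.2, 9.1 and 6.7 in WT and 7.3, 3.9 and 7.5 in KO. KO 4 was lowest and WT 1 highest, with a log2 change of -0.36 (SE 0.245, 95% interval -0.93 to 0.21) that was -0.19 without KO 4. Prc1, the bundler of the central spindle, measured 14.0, 14.0 and 11.5 in WT and 13.0, 8.6 and 13.5 in KO (log2 change -0.10, SE 0.183). Kif23, the motor of the centralspindlin complex, measured 15.0, 15.0 and 18.0 in WT and 17.1, 15.8 and 17.1 in KO, so that its KO 4 value was within the WT range (log2 change 0.03, SE 0.132). Racgap1, its partner, was 13.6 in KO 4 and 16.0 to 19.8 elsewhere, and Ect2, the exchange factor they recruit, 6.4 in KO 4 and 7.4 to 8.5 elsewhere. Kif20a, a kinesin of late anaphase, was 6.1 in KO 4 and 8.8 to 11.3 elsewhere. Of its 4338 exon bases, 1271 are shared with Cdc23 on the opposite strand, and the sources used here do not say whether reads were counted by strand.

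The proliferation marker and the topoisomerase showed the KO 4 difference at the highest levels. Mki67 (GRCm38 chromosome 7, 135689784 to 135716361, minus strand) measured 120.1, 112.7 and 104.2 in WT and 113.2, 56.4 and 116.0 in KO. The value in KO 4 was 0.498 times the median of the other 5, which lay within 104.2 to 120.1. WT averaged 112 ± 7.96 (SD, n = 3), KO averaged 95.2 ± 33.6 (SD, n = 3), and the log2 change was -0.20 (SE 0.256), or 0.04 without KO 4. Top2a measured 69.5, 71.1 and 72.2 in WT and 74.8, 40.4 and 75.6 in KO, a log2 change of -0.15 (SE 0.238), or 0.08 without KO 4. KO 1 and KO 5 were above all WT libraries for Top2a, and KO 4 was far below them.

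**Figure D3:**
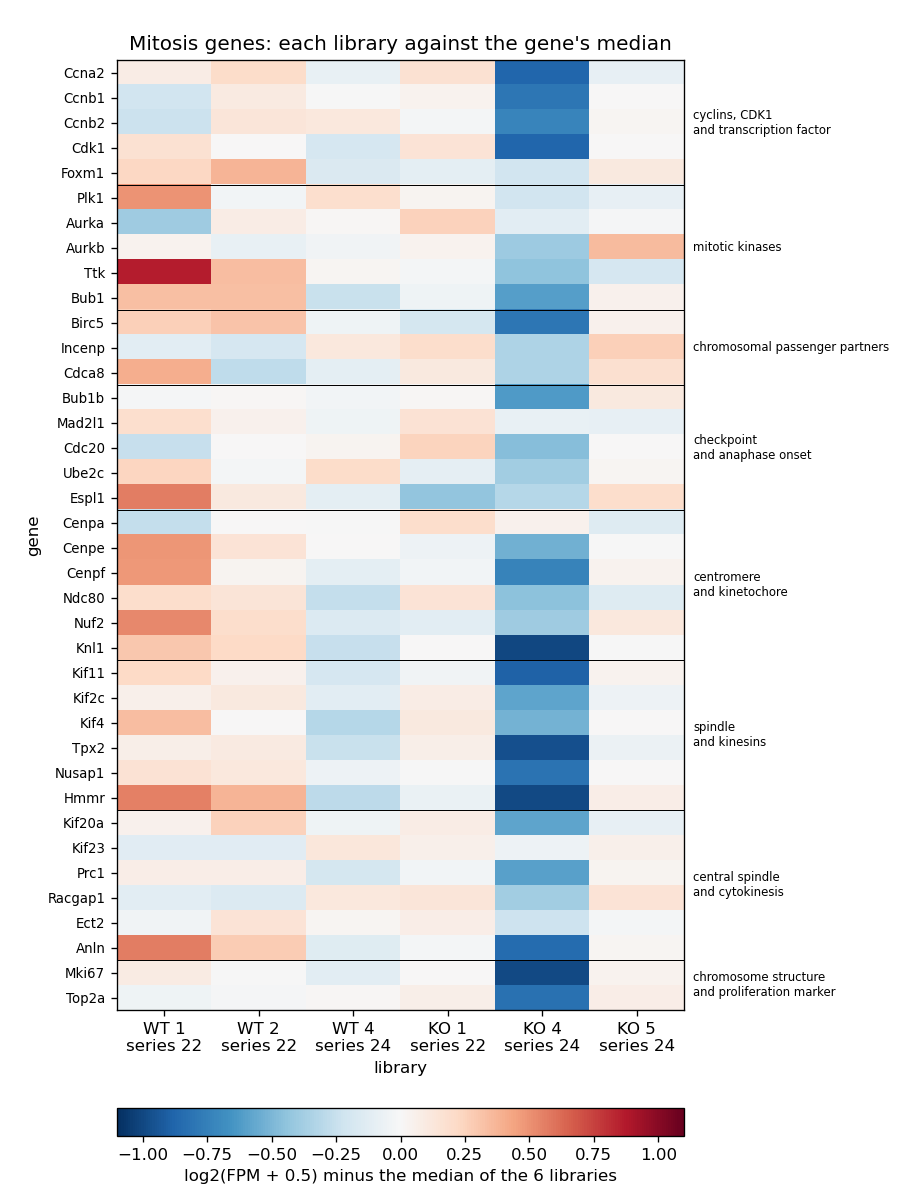
Each of the 38 mitosis genes (rows, by role) in each library (columns), as log2(FPM + 0.5) minus the gene's median over the 6 libraries (red above, blue below). KO 4 holds the lowest value for 33 genes, and Cenpa, Aurka, Mad2l1, Kif23 and Espl1 are the 5 whose lowest value is elsewhere.

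Set against the median of the other 5 libraries, KO 4 was lower by a median of 0.61 on the log2 scale over the 38 genes (median -0.61), where all genes tested had -0.02. The same measure was 0.16 for the members and -0.14 for all genes in WT 1, and 0.10 and -0.04 in WT 2. In WT 4 the order was turned, at -0.10 for the members and 0.10 for all genes. KO 1 had 0.05 and 0.03, and KO 5 had 0.04 and 0.01. In KO 4, 23 of the 38 genes were more than 0.5 below, against 6.28% of all genes. By role the median was -0.91 for Mki67 and Top2a, -0.88 for the 6 spindle genes, -0.80 for the cyclins, Cdk1 and Foxm1, -0.56 for the centromere and kinetochore genes and for the cytokinesis genes, -0.46 for the passenger partners, -0.44 for the kinases and -0.43 for the checkpoint and anaphase genes. The 25 members with TTTGAA in the promoter had a median of -0.59 and the 7 without it one of -0.66, and this difference was not tested. Without KO 4, the log2 SD of Mki67 over the libraries was 0.0752, against 0.413 with it, and that of Top2a 0.0502 against 0.345. Leaving out the most distant value lowers an SD in any case, so these values only describe the spread of the other libraries.

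**Figure D4:**
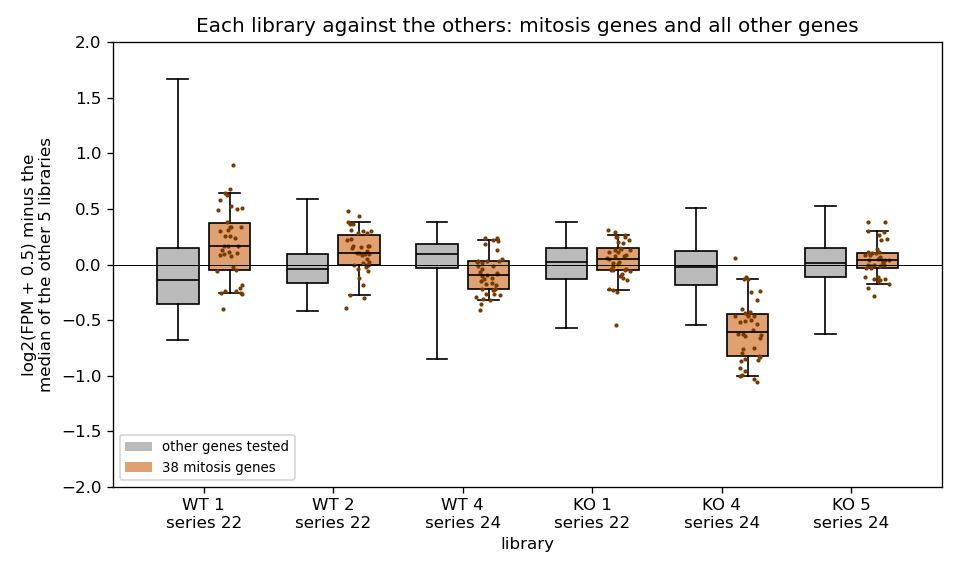
For each library, log2(FPM + 0.5) minus the median of the other 5 libraries, for the 38 mitosis genes (orange boxes, brown points) and the other genes tested (grey boxes). Boxes give the quartiles and median and whiskers the 5th and 95th percentiles, and only in KO 4 does the orange box lie wholly below 0.

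The members also departed from all genes in the WT libraries. WT 1 held the highest value for 18 of 38 members, against 20.2% of all genes, and the lowest for 2, against 44.3%. WT 2 was highest for 9 members (23.7%), against 5.4% of all genes, and WT 4 for 1 (2.63%), against 26.7%. Among those highest in WT 1 were Ttk, Espl1, Nuf2, Cenpf, Cenpe and Anln. With the receptor gene background subtracted per kb of exon, an alternative chosen after the data had been seen, the median change of the members was -0.12 and 27 of 38 were below 0, where all genes had a median of 0.05. The change of Foxm1 was then 0.00.

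Between the library series, with genotype as a term, the members were mostly lower in series 24. The log2 difference was below 0 for 34 of 38, against 38.3% of all genes, with a median of -0.26 where all genes had 0.06. Limma called 0 members, and 21 of all genes (0.141%), 1 higher and 20 lower in series 24. At an unadjusted p under 0.05 there was 1 member, Ndc80, against 8.81% of all genes. Ndc80 measured 19.8, 19.1 and 19.2 in series 22 (WT 1, WT 2 and KO 1) and 14.3, 12.5 and 15.6 in series 24 (WT 4, KO 4 and KO 5). Its difference was -0.44 (SE 0.135, limma adjusted p = 0.431). The series did not overlap, with series 24 lower, for 7 members, against 6.14% of all genes. These were Ccna2, Knl1, Tpx2, Kif2c, Kif20a, Mad2l1 and Ndc80. Without KO 4 the median series difference of the members was -0.12, with 28 of 38 below 0, where all genes had 0.09. Without KO 5 it was -0.39, with 36 of 38 below 0, where all genes had 0.05. In that fit 14 of 38 members were at an unadjusted p under 0.05, beside 1016 of all 15242 genes tested. Limma then called 0 members and 16 genes, all lower in series 24.

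The change between KO and WT did not pass a test of a difference between the series. The interaction was called by limma for 0 members and 0 genes (0.0%), with 0 members and 369 genes at an unadjusted p under 0.05, and this fit has 2 residual degrees of freedom. The median change of the members was -0.03 within series 22, where KO 1 was compared with WT 1 and WT 2, and -0.24 within series 24, where KO 4 and KO 5 were compared with WT 4. All genes had 0.12 and -0.08, so that the members lay below all genes by similar amounts in both.

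Other cell cycle genes, from lists that hold none of the 38, had 0 called members in either direction. Of the other kinetochore and centromere genes 35 of 36 were tested, with 21 below 0 and a median of -0.03. Cenpk and Cenpw had the smallest p, with log2 changes of -0.38 (SE 0.183) and -0.39 (SE 0.224). Of the other spindle and cytokinesis genes 35 of 36 were tested, with 22 below 0 and a median of -0.08. Psrc1 (0.47) and Depdc1a (-0.36) had the smallest p there. The other mitotic kinases with the E2F and FOXM1 axis had 19 of 32 below 0 (median -0.03, with E2f3 at -0.25 and Rb1 at -0.14). The subunits of NF-Y and of MuvB and DREAM had 9 of 15 below 0 (median -0.02, with Tfdp2 at -0.09 and Lin52 at -0.07). Condensin and cohesin genes had 13 of 20 (median -0.03, Ncaph2 at 0.17 and Smc2 at -0.14), and anaphase-promoting complex genes 4 of 16 (median 0.03, Ube2s at 0.24 and Anapc5 at 0.12).

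DNA replication and G1/S genes had 18 of 43 below 0, with a median of 0.04, Mcm10 at -0.28 and Tk1 at -0.26. CDK inhibitors and quiescence genes had 2 of 14 tested below 0, with a median of 0.05, Cdkn1c at 0.37 and Tob1 at 0.15. Cdkn1b, the p27 inhibitor that is high in resting T cells, measured 254.6 in KO 4 and 236.9 to 289.7 over the other libraries. Beside the 33 of 38 mitosis genes, KO 4 was lowest for 26 of 43 replication genes, with a median of -0.25 against the other 5 libraries. It was lowest for 21 of 35 other kinetochore genes (median -0.34) and 18 of 35 other spindle genes (-0.32). It was lowest for 8 of 20 condensin and cohesin genes (-0.08), 4 of 15 NF-Y, MuvB and DREAM subunits (-0.05) and 3 of 16 anaphase-promoting complex genes (-0.09).

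Markers of other cells in the samples also differed between libraries. The 11 T cell markers summed to 4195 in KO 4 and 3191 to 4151 elsewhere, so that KO 4 had the highest T cell sum and the lowest mitosis sum (336.5, against 504.0 to 570.0). The 10 regulatory T cell markers summed to 489.0 in KO 4 and 535.8 to 686.5 elsewhere, with Foxp3 at 27.4 in KO 4 and 26.5 to 37.2 elsewhere. B and plasma cell markers (15 genes) summed to 132.5 in KO 4 and 152.3 to 248.0 elsewhere. The sums were 152.3 to 187.9 in WT and 132.5 to 248.0 in KO. CD8 T and NK markers (13 genes) summed to 145.8 to 188.2 in WT and 160.5 to 209.5 in KO, and myeloid markers (17 genes) to 295.9 to 1068 in WT and 727.9 to 1615 in KO. Limma called 0 of these markers between KO and WT, and the smallest p in each list belonged to Cd5 (log2 change 0.20) and Zap70 (0.14) for T cells, Itgae (0.20) and Capg (0.20) for regulatory T cells, Cd79b (0.32) and Mzb1 (0.44) for B cells, Prf1 (0.28) and Ccl5 (0.36) for CD8 T and NK cells, and C1qc (0.55) and Lyz2 (0.96) for myeloid cells. The part of these cells in the KO 4 values was not tested.

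Erythroid markers moved with the library series. Red cell precursors divide in mouse spleen and express the same mitotic genes. The 16 markers summed to 133.7 to 168.1 in series 22 and 41.3 to 69.3 in series 24, and all 11 that were tested had a negative series difference, with a median of -1.19. Hemgn (log2 change -0.36) and Epor (0.26) had the smallest p between KO and WT. By genotype the sums overlapped, at 46.3 to 168.1 in WT and 41.3 to 139.3 in KO. Klf1, the erythroid transcription factor, measured 3.9 to 5.8 in series 22 and 1.2 to 2.6 in series 24. The 4 globin genes of the list are listed at 0 in all 6 libraries. The part of red cell precursors in the series difference of the mitosis genes was not tested.

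**Figure D5:**
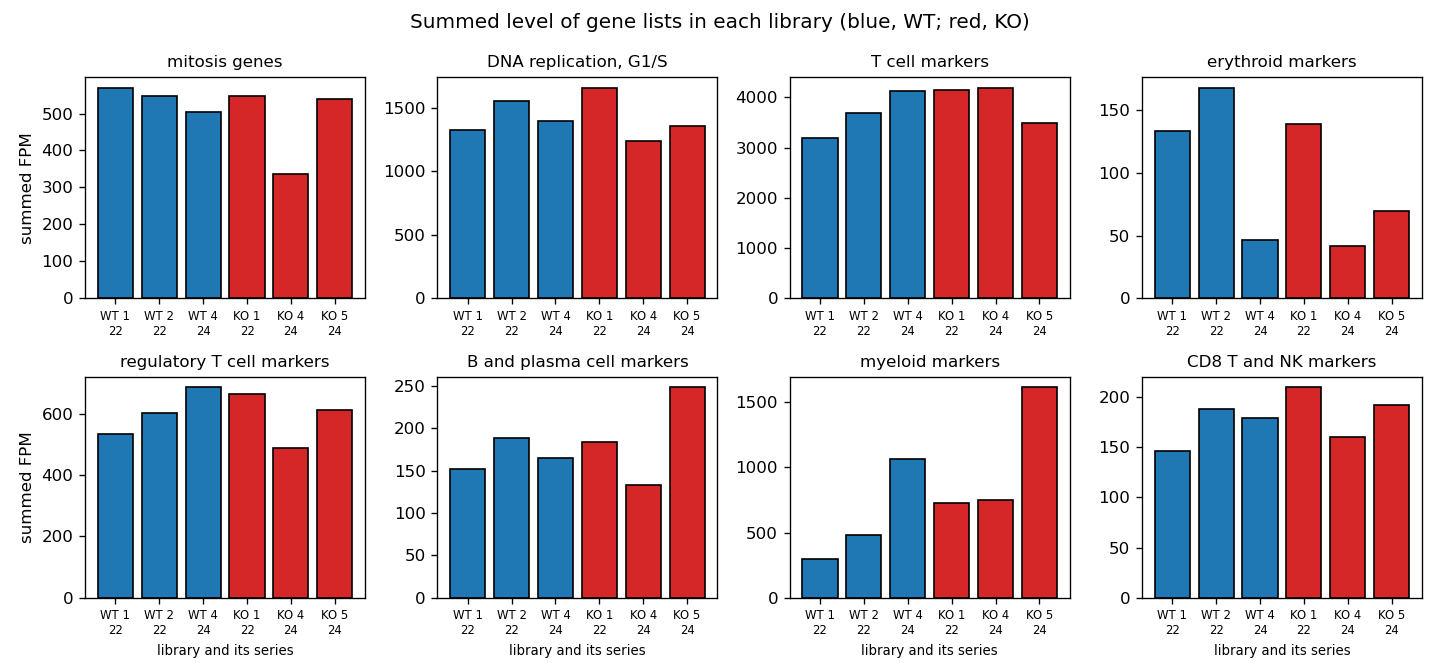
Summed FPM of the 38 mitosis genes, of DNA replication genes and of 6 lists of cell type markers in each library (blue WT, red KO, with the library series under each name, bars from 0). The mitosis sum is lowest in KO 4, and the erythroid sum is higher in each library of series 22 than in any of series 24.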

How the data were processed

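Per the labels' protocols, stranded TruSeq libraries were made after depletion of ribosomal RNA. GRCm38.p3 is the build in the submitters' processing notes, where the tools listed are DESeq, DESeq2, featureCounts and STAR, without roles or versions. The deposited values are robust FPM, treated here as RPM. The scaling that the authors used is not described beyond that name, which in DESeq2 means scaling by size factors. Values are rounded to 1 decimal, so that whole reads cannot be recovered. Another 6 value columns, with act in their headers where those used have rest, matched no sample and were not used. The 92 ERCC spike-in rows stayed out of the tests. Identifiers were matched without version to GENCODE M21 (GRCm38) for symbols and exon lengths, for 54409 of 54532 gene rows.

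For genes with a mean of at least 1, tests used log2(value + 0.5), on which changes of low genes are understated. A linear model with library series and genotype was fitted on all 14944 with limma 3.58.1 (R 4.3.3), with a mean-variance trend, two-sided moderated tests and Benjamini-Hochberg adjustment, called below 0.05. A further fit with a term for each series and genotype tested the interaction. The script was tested on simulated data. The design calls the samples biological replicates, and p-values measure the spread between them.

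The members and lists were chosen with earlier results of these data known. Values in every library are given for 16 members chosen by role, the 5 members of smallest p in each direction and members whose groups do not overlap. The other lists name up to 2 genes of smallest p each. Cdkn1b, Foxp3 and Klf1 were chosen after their values were seen. Alternatives changed the pseudocount, filter, scaling, variance model, terms and libraries. Figures were drawn with matplotlib 3.10.9.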

Additional observations from a re-analysis of the deposited data

How the results depend on the processing

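Limma called 0 mitosis genes in either contrast and in the interaction under each alternative tried. At an unadjusted p under 0.05 there were 0 between KO and WT, save 5 with a replicate block, 5 without KO 5 and 1 without the series term. Among all genes these fits had 159 of 14944, 174 of 15242 and 76 of 14944, in that order. Between series there were at most 2, save 14 without KO 5, where 1016 of all 15242 genes were. The 2 were found without WT 1, where 1469 of all 14118 genes were. For KO minus WT limma called 0 of all genes throughout, except 5 (1 higher, 4 lower) with a replicate block. The numbers in the titles are shared by 2 pairs only. Deviations of these same-numbered libraries correlated at -0.16 (WT 1 and KO 1) and -0.41 (WT 4 and KO 4). Libraries with unlike numbers reached 0.49 (WT 1 and KO 4). With 3 libraries per group, such correlations cannot show whether same-numbered samples were paired. Genes called between series (21) numbered 54 with a mean of at least 5, 13 with ERCC scaling, 0 without a trend, 37 with the robust setting, 50 with background subtracted, and 0 to 110 when 1 library was left out (0 without WT 4 or KO 1, 7 without WT 2, 67 without KO 4, 110 without WT 1). The interaction was called for 8 genes with ERCC scaling.

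The median change of the mitosis genes (-0.15) was -0.36 with ERCC scaling, where all genes had -0.20 and all 38 members were below 0, -0.33 with the replicate block, -0.24 without the series term and -0.29 to 0.01 when 1 library was left out. Of 350 alternative values for the 21 genes with a printed change, 31 turned sign, in 13 genes. With ERCC scaling these were Aurka (-0.03), Cdc20 (-0.15), Cenpa (-0.08), Kif23 (-0.19), Aurkb (-0.16) and Incenp (-0.12). Cdc20 turned without the series term (0.00), and Cdc20 (0.00), Aurkb (-0.18) and Incenp (-0.08) with the replicate block. Foxm1 turned with background subtracted (0.00). With 1 library left out, the ranges were -0.08 to 0.41 for Aurka, -0.12 to 0.20 for Aurkb, -0.40 to 0.03 for Ccna2, -0.38 to 0.09 for Ccnb1, -0.27 to 0.37 for Cdc20, -0.26 to 0.12 for Cdk1, -0.04 to 0.32 for Cenpa, -0.41 to 0.11 for Foxm1, -0.16 to 0.34 for Incenp, -0.13 to 0.18 for Kif23, -0.40 to 0.04 for Mki67, -0.23 to 0.04 for Prc1 and -0.38 to 0.09 for Top2a. The cause was not tested. Depth is unknown, and the 1 decimal of the values limits low genes.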
